A study of Mus musculus with 12 samples.

Results

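Semaphorins, plexins and neuropilins are the ligands and receptors of the semaphorin guidance system, and their transcripts were compared here between brainstem microglia (BSM) and bone marrow monocytes (BMDM). Members were the rows of the gene-level expression table whose only gene symbol is a semaphorin of classes 3 to 7, a plexin, Nrp1 or Nrp2. The rule can name 31 genes, and 30 of them were measured, namely 20 semaphorins, 9 plexins and Nrp1, out of 18430 genes that a single symbol names in the table. The row that names Nrp2 carries 2 gene symbols and was not used, so no value is given for it. Each measured member had a row of its own.

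BSM were sorted by flow cytometry as CD11b+ CD45low CD115low Ly6G- cells, and BMDM as CD11b+ CD45high CD115+ Ly6G- cells, from C57BL/6 mice aged 6 weeks. These gates are those of the study's results, and its methods leave out CD115 for BSM and CD45 for BMDM. RNA of each sorted pool was amplified and hybridized to an Affymetrix Mouse Exon 1.0 ST array, an array with probes along the exons of each gene, on 3 arrays per cell type. Per the labels, the arrays of a cell type are biological replicates, with replicate 1 from female mice and replicates 2 and 3 from male mice. The study's main text calls the mice male, but its supplement lists the replicate 1 pools of both cell types as female. Replicate 1 of both cell types also came from a set of sorts shared with RNA sequencing, and replicates 2 and 3 from separate sets, so the labelled sex and the set cannot be told apart. The animals of a pool were combined, so variation between single mice is not seen. Each value is the gene's log2 intensity, from the table that the authors made with the Aroma program. The same 6 arrays were also summarised with Expression Console, in a second table used as a check.

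Semaphorins were named for their part in steering growing axons, and they act in immune cells and vessels as well. Class 3 semaphorins are secreted and mostly bind a neuropilin paired with an A-type plexin, classes 4, 5 and 6 span the membrane and bind plexins directly, and Sema7a is held by a lipid anchor. Plexins carry an intracellular GTPase-activating domain that acts on small GTPases, and through it ligand binding changes the cytoskeleton and integrin adhesion.

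The arrays of each cell type resembled each other, with Pearson's r across all rows from 0.983 to 0.989 among the BSM arrays, 0.991 to 0.992 among the BMDM arrays and 0.855 to 0.870 between them. Rows are not independent replicates. Of the sort genes, Itgam (CD11b) and Csf1r (CD115) were higher in BSM by 0.88 and 1.98 on the log2 scale, and Ptprc (CD45) and Ly6g were lower, with differences of -0.49 and -1.31. BSM, which the study's results but not its methods describe as low for CD115, thus read higher for the CD115 transcript. All 9 measured microglia markers were higher in BSM, with summed intensities of 32331 to 34128 in BSM and 2097 to 2349 in BMDM, and all 7 measured monocyte markers were lower, with sums of 165 to 205 in BSM and 21702 to 22668 in BMDM. Markers of other cells moved with the cell type too. All 11 neutrophil and granule markers were lower in BSM (sums of 265 to 366, against 14596 to 16636 in BMDM), as were 4 of 6 erythroid markers (214 to 369 in BSM, 5270 to 8055 in BMDM) and 4 of 8 lymphocyte markers (194 to 240 in BSM, 610 to 918 in BMDM). Astrocyte markers summed to 412 to 433 in BSM and 197 to 200 in BMDM, of which Slc1a3 alone gave 188 to 215 and 17.4 to 18.4. Of these 8 markers, 4 were higher in BSM and 1 was lower, beside 28% and 21.6% of all rows. Their median log2 difference was 0.34, against 3.53 for Slc1a3 and 0.18 over all rows. By Expression Console, 2 of 7 were higher and 1 was lower, with a median of 0.02. With each Aroma array centred on its median, 2 of 8 were higher and 1 was lower. The neuron, oligodendrocyte, endothelial and border macrophage lists had sums that overlapped between the cell types. The part of these other cells in the results below was not tested, and in sorted pools fewer cells of a type and less RNA per cell cannot be told apart.

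Some of these transcripts differed in level between BSM and BMDM, and others were bright in both. Sema4g, Sema4c and Sema6d and the receptors Plxna4, Plxna3, Plxnb2 and Plxnb3 were higher in BSM, whereas Sema4a, Plxnc1 and Plxnd1 were lower. Plxna4 was 14.9-fold higher and Sema4g 9.67-fold higher in BSM. Sema4a was 20.2-fold lower, Plxnd1 15.9-fold lower and Plxnc1 11.8-fold lower. The dimmer cell type's reading enters each of these folds with its background. With 16 intensity units added before log2, the difference of Plxna4 was 3.21 in place of 3.90, that of Sema4g 2.70 in place of 3.27, that of Plxnd1 -3.50 in place of -3.99 and that of Plxnc1 -2.80 in place of -3.56, and each still passed. The co-receptor Nrp1 was bright in both cell types and did not pass the test.

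In all, 16 of 30 members were higher in BSM, 3 were lower and 11 did not pass, with limma and an adjusted p threshold of 0.05 over all 21837 rows. Over all rows, 28% were higher in BSM and 21.6% were lower by the same rule. The median log2 difference was 0.32 over the members and 0.18 over all rows. It was not the same at all levels. Over rows whose mean lay under the median of all row means it was 0.25, and over the brighter rows -0.10. With a difference of at least 2-fold asked for as well, 5 members were higher (Sema4c, Sema4g, Sema6d, Plxna4 and Plxnb3) and 3 were lower (Sema4a, Plxnc1 and Plxnd1), where 6.81% of all rows were higher and 9.24% lower. Sema6d and Plxnb3 fell under 2-fold with 16 intensity units added before log2. Plxnb3 also did with each Aroma array centred on its median (log2 difference 0.88). The rest stayed at 2-fold or more in both settings. All 3 BSM arrays lay above all 3 BMDM arrays in 20 members and below them in 4, against 36.4% and 24.4% of all rows.

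**Figure D1:**
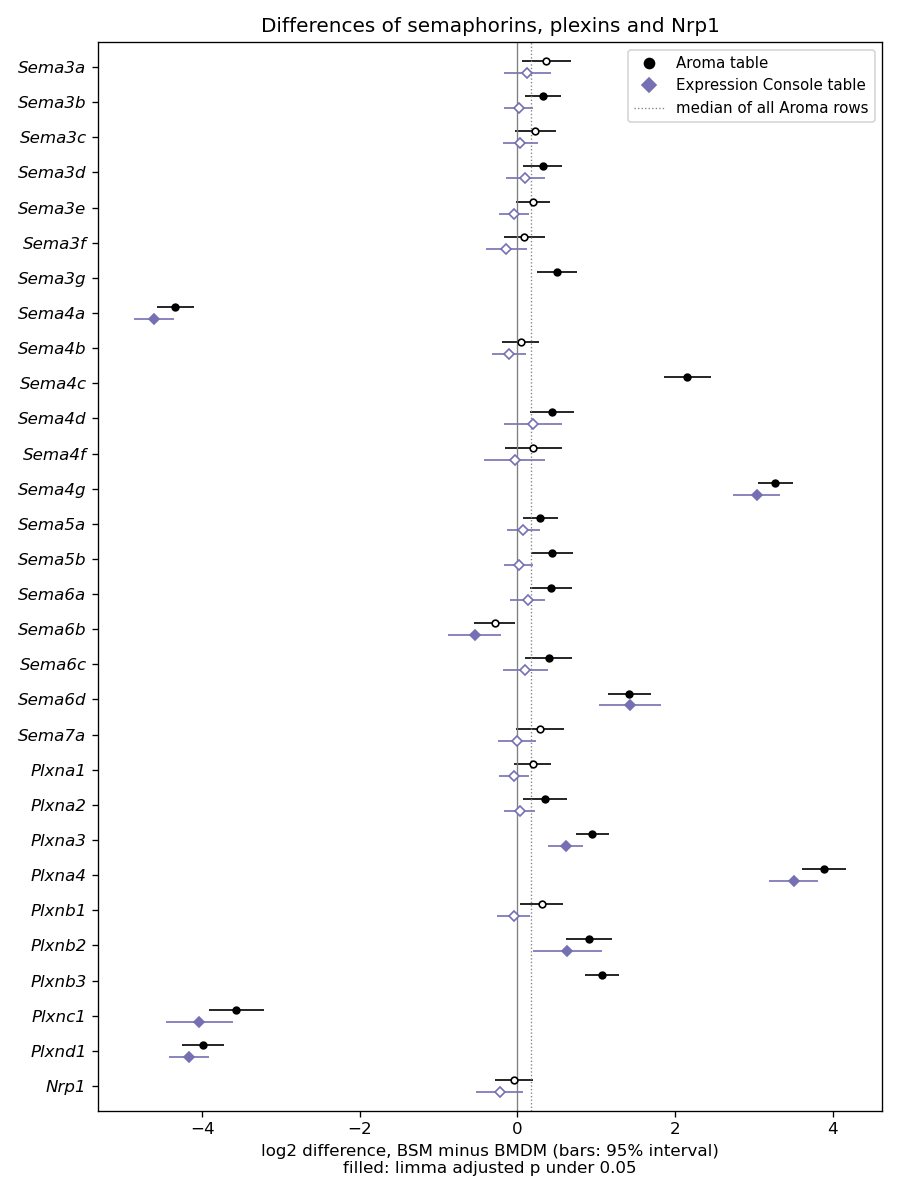
Log2 difference (BSM minus BMDM, x axis) of each measured member (rows) in the Aroma table (circles) and the Expression Console table (diamonds), with 95% intervals and filled symbols for an adjusted p under 0.05. Sema4a, Plxnc1 and Plxnd1 lie below -3 in both tables and Sema4g and Plxna4 above 3, while most other members lie near the dotted line at the median of all Aroma rows, 0.18.

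Most of the small calls were lost with another summary of the arrays or another scaling. In the Expression Console table the median over all rows was -0.05, and of the 27 members it holds, 5 were higher in BSM and 4 were lower, where 8.38% of all its rows were higher and 20.5% lower. With each Aroma array centred on its median, 8 members were higher and 4 were lower, where 14.9% of all rows were higher and 26.5% lower. The 8 members higher in BSM in every alternative run were Sema3g, Sema4c, Sema4g, Sema6d, Plxna3, Plxna4, Plxnb2 and Plxnb3, and the 3 lower in every one were Sema4a, Plxnc1 and Plxnd1. Expression Console has no row for Sema3g, Sema4c or Plxnb3, so these 3 rest on the Aroma table alone. Sema3g, Sema6d, Plxna3 and Plxnb3 had means under the median of all row means. The alternative that dropped dim rows therefore did not test them.

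Among the transmembrane class 4 ligands, Sema4a, which binds plexins of the B and D types and co-stimulates T cells, had the largest difference of all members. It read 6.15, 6.30 and 6.35 on the log2 scale in BSM, against 10.57, 10.67 and 10.58 in BMDM. The groups lay far apart, with each BMDM array more than 4 log2 units above every BSM array. Sema4a was lower in BSM by 4.34 on the log2 scale (SE 0.10, limma adjusted p = 2.1e-08), and its Expression Console difference was -4.61 (adjusted p = 8.6e-06).

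Sema4g, a less studied class 4 ligand of Plxnb2, went the opposite way. Its log2 values were 8.04, 8.14 and 8.0 in BSM, against 4.74, 4.86 and 4.76 in BMDM. Every BSM array was above every BMDM array, and the arrays of a cell type differed by little. The difference was 3.27 (SE 0.10, limma adjusted p = 5.3e-08) and 3.04 in the Expression Console table (adjusted p = 3.1e-05).

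Sema4c, another ligand of Plxnb2, read 7.19, 7.23 and 7.60 in BSM and 5.18, 5.15 and 5.23 in BMDM. BSM replicate 3 stood above the other two BSM arrays, and all 3 were above the BMDM arrays. Sema4c differed by 2.15 (SE 0.13, 4.45-fold, limma adjusted p = 2.9e-06).

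Sema4d, or CD100, signals through B-type plexins and CD72. It was bright in both cell types, at 9.45, 9.73 and 9.75 in BSM and 9.27, 9.10 and 9.25 in BMDM. BSM replicate 1 was the lowest of its group, and it lay above the highest BMDM array by a small margin. The log2 difference of 0.44 passed (limma adjusted p = 0.016), but that of 0.20 in the Expression Console table did not (adjusted p = 0.41), nor did that of 0.25 after median centring (adjusted p = 0.17). Over 19 alternatives it ranged from 0.20 to 0.76, and it passed in 13 of them.

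The remaining class 4 ligands did not pass. Sema4b averaged 7.57 ± 0.10 in BSM and 7.53 ± 0.07 in BMDM (SD, n = 3 each), which differed by 0.04, by -0.10 with Expression Console and by -0.15 after centring. Sema4f differed by 0.20, with overlapping arrays, and by -0.04 in the Expression Console table.

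**Figure D2:**
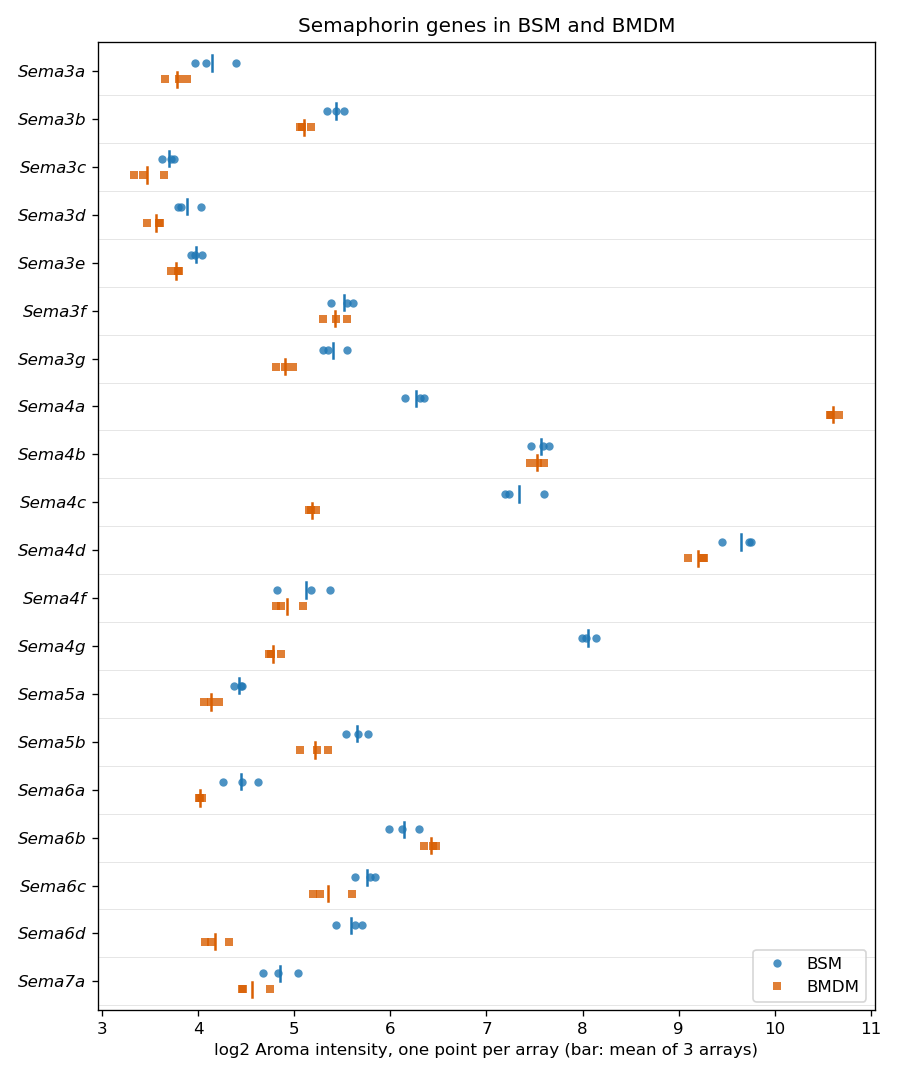
Log2 Aroma intensity (x axis) of the 20 semaphorin genes (rows) on each of 3 BSM arrays (circles) and 3 BMDM arrays (squares), with a bar at each mean. BSM lie far left of BMDM for Sema4a (means 6.27 and 10.61) and far right of them for Sema4g (8.06 and 4.78) and Sema4c (7.34 and 5.19).

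Of the class 6 ligands, Sema6d, which binds A-type plexins and has been linked to Plxna1 in complex with Trem2 and Tyrobp in dendritic cells and osteoclasts, read 5.64, 5.71 and 5.44 in BSM and 4.08, 4.13 and 4.32 in BMDM. The cell types did not overlap. The log2 difference was 1.42 in both tables, with an SE of 0.12 by Aroma (2.67-fold, limma adjusted p = 2.2e-05) and of 0.16 by Expression Console (limma adjusted p = 0.0015).

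Sema6b, a ligand of Plxna4, leaned the other way, at 6.30, 5.99 and 6.12 in BSM and 6.35, 6.48 and 6.45 in BMDM. BSM replicate 1 came close to the lowest BMDM array. The log2 difference was -0.29 (limma adjusted p = 0.064), and it passed with Expression Console as -0.54 (adjusted p = 0.032) and as -0.48 after centring (adjusted p = 0.0069).

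Sema6a, a ligand of Plxna2 and Plxna4, and Sema6c passed with differences of 0.43 and 0.40 (limma adjusted p = 0.017 and 0.036). In the Expression Console table they differed by 0.13 and 0.10 and after centring by 0.24 and 0.21, and neither passed there. The class 5 genes Sema5a and Sema5b, whose products carry thrombospondin repeats, followed the same course, with differences of 0.29 and 0.44 by Aroma (limma adjusted p = 0.035 and 0.015) against 0.08 and 0.01 by Expression Console. Sema7a, the ligand of Plxnc1 and of integrin alpha1 beta1, read 5.03, 4.68 and 4.83 in BSM and 4.46, 4.46 and 4.75 in BMDM. Its arrays overlapped, and the difference of 0.29 did not pass (limma adjusted p = 0.10) and was -0.0061 in the Expression Console table.

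The secreted class 3 ligands were dim in both cell types, with mean log2 values of 3.70 to 5.51 in BSM and 3.47 to 5.43 in BMDM, where the median row mean was 5.63. Sema3g was the member of this class that passed in each setting that measured it. It read 5.55, 5.30 and 5.35 in BSM and 4.90, 4.81 and 4.99 in BMDM, so that all BSM arrays were above all BMDM arrays. The difference was 0.50 (SE 0.11, 1.41-fold, limma adjusted p = 0.0060), and 0.31 after centring (adjusted p = 0.039).

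Sema3b and Sema3d passed with differences of 0.33 and 0.32 (limma adjusted p = 0.026 and 0.037). Neither did so in the Expression Console table, where they differed by 0.02 and 0.10, or after centring, with 0.14 and 0.13. Sema3a, the classical growth cone-collapsing ligand of Nrp1, differed by 0.37 (limma adjusted p = 0.053). Sema3c and Sema3e (Sema3e binds Plxnd1 without a neuropilin) differed by 0.23 and 0.20, and Sema3f by 0.09. None of these 4 passed, and Sema3e and Sema3f were at -0.05 and -0.14 in the Expression Console table.

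The dim members that passed all did so in 1 direction. Of the members, 18 had a mean under the median row mean, and 11 of these were higher in BSM and 0 were lower, with a median difference of 0.34, and of all 10918 rows that dim, 3056 were higher and 506 lower, with a median of 0.25. BSM replicate 1 was the brightest BSM array in 11 of the 18 (61.1%), and in 57% of all dim rows. The values carry no detection call, a dim reading holds background too, and the part of background in these small differences was not tested.

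Among the receptors, Plxna4, which partners neuropilins for class 3 semaphorins and binds Sema6a and Sema6b directly, had the largest rise. It read 8.47, 8.60 and 8.28 in BSM, against 4.47, 4.50 and 4.70 in BMDM. The lowest BSM array was far above the highest BMDM array. Plxna4 differed by 3.90 (SE 0.12, limma adjusted p = 6.7e-08), and 3.51 in the Expression Console table (adjusted p = 2e-05).

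The other A-type plexins differed less. Plxna3 read 5.66, 5.66 and 5.64 in BSM and 4.71, 4.68 and 4.73 in BMDM, tight groups that did not overlap, with a difference of 0.95 (SE 0.09, 1.93-fold, limma adjusted p = 4.8e-05) and of 0.62 in the Expression Console table (adjusted p = 0.0043). Plxna1, a receptor of Sema6d, differed by 0.20 and did not pass (limma adjusted p = 0.14) (Expression Console, -0.04). Plxna2 passed at 0.35 (limma adjusted p = 0.039) but not in the Expression Console table, at 0.03, or after centring, at 0.16.

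Plxnb2, the B-type receptor that binds Sema4c, Sema4d and Sema4g, was bright in both cell types. Its log2 values were 10.10, 10.47 and 10.31 in BSM and 9.41, 9.25 and 9.50 in BMDM. The arrays did not overlap, and the difference was 0.91 (SE 0.13, 1.88-fold, limma adjusted p = 0.00053), with 0.64 in the Expression Console table (adjusted p = 0.042).

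Plxnb3, known as a receptor of Sema5a, read 5.86, 5.87 and 5.96 in BSM and 4.88, 4.81 and 4.78 in BMDM. All BSM arrays were above all BMDM arrays, by 1.07 on average (SE 0.09, 2.11-fold, limma adjusted p = 3.0e-05). Plxnb1, the first receptor described for Sema4d, differed by 0.31 and did not pass (limma adjusted p = 0.061), with -0.05 in the Expression Console table.

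Plxnd1 and Plxnc1 were the receptors that were lower in BSM. Plxnd1, a receptor of Sema3e and Sema4a, read 5.38, 5.06 and 5.09 in BSM, against 9.16, 9.20 and 9.12 in BMDM. Each BMDM array was far above every BSM array. The log2 difference was -3.99 (SE 0.12, limma adjusted p = 4.9e-08), and -4.16 in the Expression Console table (adjusted p = 9.3e-06).

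Plxnc1, the receptor of Sema7a, read 4.57, 4.32 and 4.02 in BSM, against 7.94, 7.95 and 7.71 in BMDM. The BSM arrays were spread more widely than those of BMDM (SD 0.27 and 0.14), and the groups lay far apart. Plxnc1 thus differed by -3.56 (SE 0.15, limma adjusted p = 4.0e-07), and -4.04 in the Expression Console table (adjusted p = 3.7e-05).

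**Figure D3:**
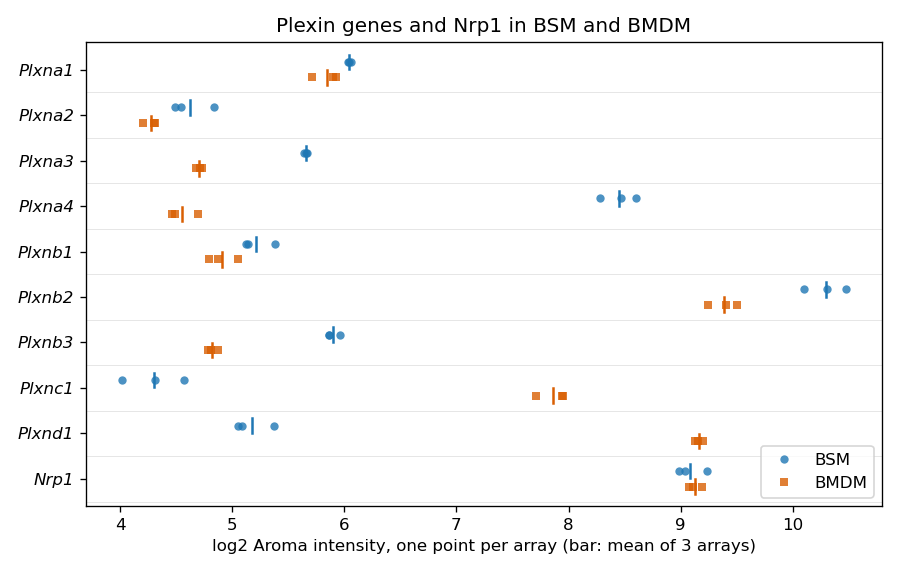
Log2 Aroma intensity (x axis) of the 9 plexin genes and Nrp1 (rows) on each of 3 BSM arrays (circles) and 3 BMDM arrays (squares), with a bar at each mean. Plxna4 is the plexin that lies farthest to the right in BSM relative to BMDM (means 8.45 and 4.55), Plxnc1 (4.30 and 7.87) and Plxnd1 (5.17 and 9.16) lie to the left, and the Nrp1 arrays mix.

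Nrp1, the co-receptor of class 3 semaphorins and of vascular endothelial growth factor, read 9.03, 9.23 and 8.99 in BSM and 9.08, 9.19 and 9.11 in BMDM. The arrays of the cell types mixed. The log2 difference was -0.04 (SE 0.11, 95% interval -0.29 to 0.20, limma adjusted p = 0.75), -0.23 with Expression Console (adjusted p = 0.25) and 0.29 after another round of quantile normalization (adjusted p = 0.061). An equal level was thus not shown, and the interval bounds the change at less than 2-fold.

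The promoter sequences of Plxnc1, Plxnd1 and Sema4g are shown because these members had differences of at least 2 log2 units in opposite directions and a single promoter entry each. They are the 250 bases before the start of the gene, 5′ to 3′ on its own strand, as given by RefSeq for GRCm38.p6, and the capitals mark matches to the motifs searched. Plxnc1 and Plxnd1, lower in BSM, come first, at chr10:94944846-94945095 (minus strand) and chr6:115995006-115995255 (minus strand), and Sema4g, higher in BSM, is at chr19:44989094-44989343 (plus strand).
Plxnc1: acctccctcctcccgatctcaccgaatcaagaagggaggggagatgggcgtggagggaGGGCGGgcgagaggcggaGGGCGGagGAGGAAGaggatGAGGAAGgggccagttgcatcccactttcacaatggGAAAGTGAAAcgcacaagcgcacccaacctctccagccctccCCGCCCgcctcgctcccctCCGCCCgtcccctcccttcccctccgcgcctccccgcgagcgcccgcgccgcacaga
Plxnd1: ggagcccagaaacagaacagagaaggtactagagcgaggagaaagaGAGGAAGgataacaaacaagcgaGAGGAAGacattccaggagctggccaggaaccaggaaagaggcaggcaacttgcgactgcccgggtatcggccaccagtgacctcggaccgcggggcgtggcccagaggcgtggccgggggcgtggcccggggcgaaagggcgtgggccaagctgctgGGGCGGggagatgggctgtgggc
Sema4g: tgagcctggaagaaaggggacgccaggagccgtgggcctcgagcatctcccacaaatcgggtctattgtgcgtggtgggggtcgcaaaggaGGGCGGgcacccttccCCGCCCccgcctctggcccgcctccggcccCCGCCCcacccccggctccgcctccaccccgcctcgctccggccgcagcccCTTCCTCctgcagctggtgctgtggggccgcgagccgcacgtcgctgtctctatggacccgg

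Searched on both strands were the letters GAGGAAG of PU.1, the factor that myeloid cells depend on, TTGCNNAA of C/EBP, TGANTCA of AP-1, CTA and TAG with any 4 bases between them for MEF2, GAAA and GAAA with any 2 bases between them for the interferon regulatory factors and GGGCGG, the GC box of Sp factors. The PU.1 letters occurred at 2 places in Plxnc1, 166 to 160 and 154 to 148 bases before the start, at 2 places in Plxnd1, 204 to 198 and 181 to 175 bases before it, and in Sema4g as the reverse complement CTTCCTC, 62 to 56 bases before it. They were thus present on both sides of the comparison. Plxnc1 also held a match to the interferon regulatory factor letters, 118 to 109 bases before the start, and the GC box occurred at 4 places in Plxnc1, 3 in Sema4g and 1 in Plxnd1. The C/EBP, AP-1 and MEF2 letters had no match in these 3 windows, and no matches overlapped. Of the 32851 promoters in the table, 10.6% held the PU.1 letters, 9.56% C/EBP, 6.75% AP-1, 3.2% MEF2, 2.98% the interferon regulatory factor letters and 32.7% the GC box. In the 36 promoter entries that 25 of the members had, the PU.1 letters were in 11, C/EBP in 2, AP-1 in 3, MEF2 in 1, the interferon regulatory factor letters in 2 and the GC box in 26. A match is a description of letters and not a sign that a factor binds there.

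Other genes of the pathway differed in both directions. Among 14 other receptors and co-receptors, 3 were higher in BSM, 5 were lower and 6 did not pass, where 28% of all rows were higher and 21.6% lower, with a median difference of 0.17, against 0.18 over all rows. Trem2, the immune receptor that complexes with Plxna1, read 11.51, 11.91 and 11.68 in BSM and 8.18, 7.94 and 7.95 in BMDM. Its arrays did not overlap and differed by 3.67 (limma adjusted p = 1.4e-07). Tyrobp, the adaptor that carries the Trem2 signal, was bright in both cell types, at 12.18 ± 0.10 in BSM and 12.13 ± 0.09 in BMDM (SD, n = 3 each), and did not pass, with a difference of 0.05 (limma adjusted p = 0.71) that was -0.14 after centring. Cd72, the receptor of Sema4d on lymphoid and myeloid cells, was higher in BSM by 1.33 (2.52-fold, limma adjusted p = 3.5e-05) and in the Expression Console table by 0.73 (adjusted p = 0.016).

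On the other side, Itga1, the alpha chain of the integrin that Sema7a binds, read 3.81, 3.59 and 3.57 in BSM and 8.91, 9.09 and 8.78 in BMDM. Met, the hepatocyte growth factor receptor that associates with B-type plexins, read 3.86, 3.87 and 3.73 in BSM and 9.25, 9.07 and 8.93 in BMDM. Both differed by -5.27, with no overlap (limma adjusted p = 2.0e-08 for Itga1 and 1.7e-08 for Met). Their BSM readings were under the lower quartile of each BSM array (4.43 to 4.56), where background makes up an unknown share of a value, so no fold is given. L1cam, a co-receptor of Nrp1 for Sema3a, was lower by 3.53 (adjusted p = 8.8e-08). The integrin beta chain Itgb1 differed by 0.23 and did not pass (limma adjusted p = 0.12).

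Of 6 other ligands of neuropilins, Vegfb was higher in BSM (1.05), Hgf and Tgfb1 were lower (differences of -1.09 and -0.31), and 3 did not pass, with a median of -0.11. Of all rows, 28% were higher in BSM and 21.6% lower. Of the proteases that process or shed semaphorins and plexins, 3 were measured and all passed, 2 higher and 1 lower, beside those same shares of all rows. The membrane-type metalloprotease Mmp14, which sheds Sema4d, read 7.65, 7.88 and 8.28 in BSM and 4.33, 4.47 and 4.64 in BMDM. The arrays did not overlap, and the difference was 3.45 (SE 0.17, limma adjusted p = 8.8e-07). Adam10 was higher by 0.84, and Furin, the convertase that cleaves class 3 semaphorins, differed by -0.50.

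Of the 30 measured effectors inside the cell, 9 were higher in BSM, 9 were lower and 12 did not pass, with a median difference of 0.06. These counts are near the 28% and 21.6% of all rows, and they were 12 higher and 4 lower after quantile normalization again and, of the 29 in the Expression Console table, 4 higher and 9 lower. Mras and Rras2, of the R-Ras group of small GTPases that plexins act on, were higher by 2.47 (5.55-fold, limma adjusted p = 6.4e-07) and 1.99 (3.98-fold, adjusted p = 9.5e-07). Rras, of the same group, went the other way, with a difference of -1.21 (2.32-fold, limma adjusted p = 0.00011). Arhgef12, the RhoA exchange factor that binds B-type plexins, was higher by 2.26 (4.79-fold, adjusted p = 6.5e-07). Mical1, a flavoprotein that takes actin filaments apart downstream of A-type plexins, was lower, with a difference of -1.30 (2.46-fold, adjusted p = 2.6e-05).

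**Figure D4:**
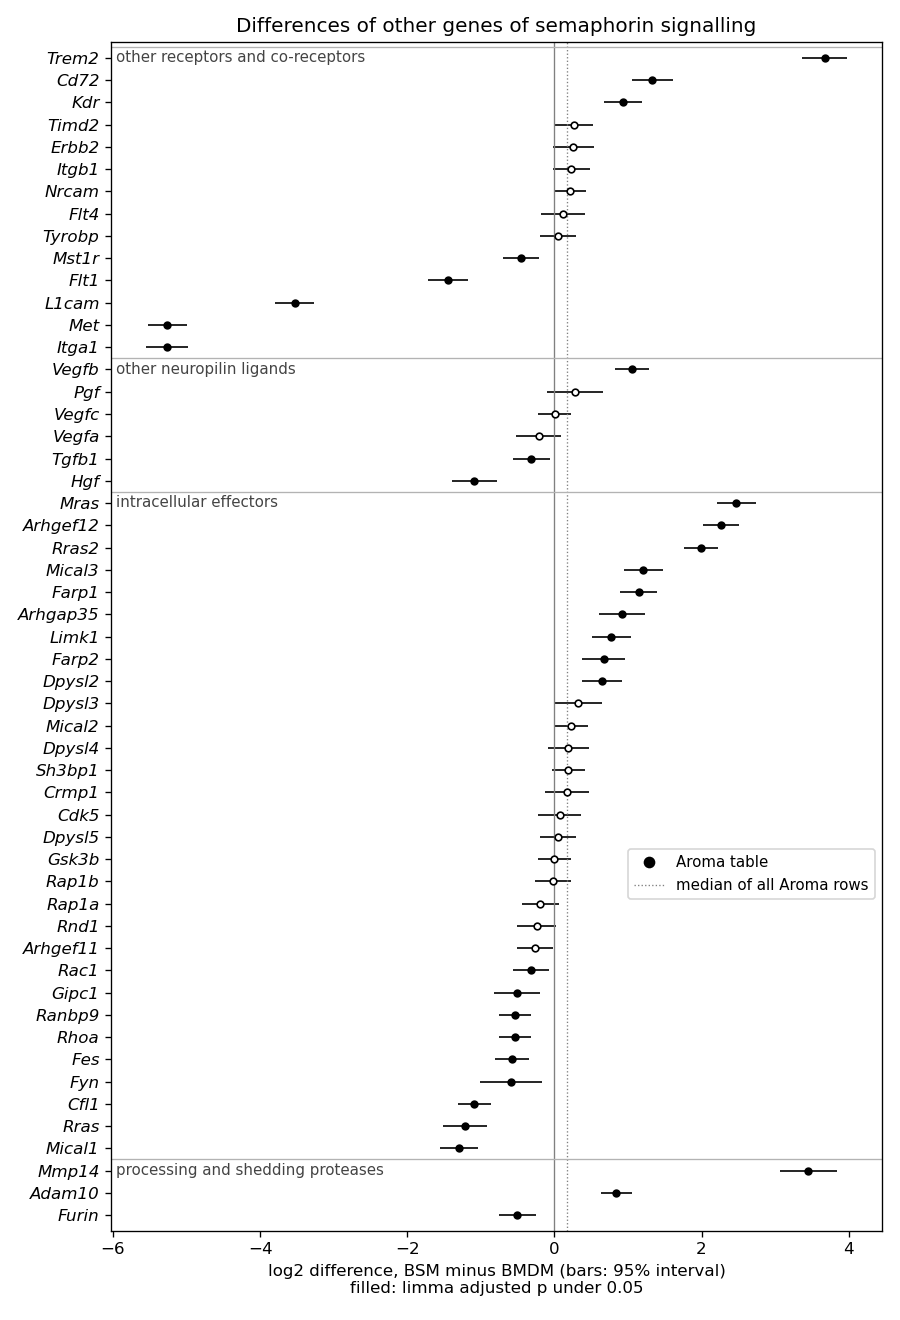
Log2 difference (BSM minus BMDM, x axis) of the other genes of semaphorin signalling (rows, in 4 lists) in the Aroma table, with 95% intervals and filled circles for an adjusted p under 0.05. Trem2 (3.67) and Mmp14 (3.45) lie farthest right and Met and Itga1 (-5.27 each) farthest left, with the effectors spread on both sides of the dotted line at the median of all rows.

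Set beside their partners, the members that were lower in BSM included both Sema4a and its receptor Plxnd1, and Plxnc1 and Itga1, which both encode receptors of Sema7a, were lower while Sema7a itself did not pass. The class 4 ligands Sema4c and Sema4g were higher in BSM along with their receptor Plxnb2. Plxna4 was higher while its co-receptor Nrp1 overlapped. Other partners did not move together. Sema4a also binds B-type plexins, of which Plxnb2 and Plxnb3 were higher in BSM and Plxnb1 did not pass. Sema6b, a ligand of Plxna4, differed by -0.29 and did not pass, while Plxna4 was higher. Transcript levels do not measure the surface proteins.

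No dependence on the labelled sex of the pools, and with it the sort set, was detectable at this number of arrays. Over the 30 members, the lowest adjusted p of the sex by cell type term in limma was 0.738, and 0 members had an unadjusted p under 0.05, with 1 female and 2 male pools per cell type.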

How the data were processed

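The 12 GEO samples are 6 arrays, 3 of BSM and 3 of BMDM, each summarised by 2 programs. The linear intensity values deposited by the authors were made with Aroma (RMA background correction, quantile normalization, log-additive probe-level model). The log2 values deposited by the authors came from RMA in Expression Console, and were fitted separately as a check. Groups, replicate numbers and sex were taken from the labels. No depth exists for arrays, and 3 per cell type limit the precision. Aroma gave 21837 rows. Of these, 18821 carried exactly 1 symbol in the platform annotation, 763 carried several and 2253 none. Old symbols on rows with 1 symbol were then updated through RefSeq gene names. The Expression Console table had 23332 rows. The row with the highest mean stood for a gene.

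Aroma intensities were converted to log2 and fitted in limma 3.58.1 under R 4.3.3 (lmFit, eBayes). Tests of BSM minus BMDM were two-sided, had no covariate and were adjusted over all rows by Benjamini-Hochberg. The steps were tested on simulated data. All members are named, and of each pathway list up to 4 genes that passed without overlap and had the largest differences, besides Trem2, Tyrobp, Met, Cd72 and the sort genes. Genes named beyond that (Itgb1 and Rras) were chosen after their values were seen. Members and lists were chosen with earlier results of these data known. Alternatives were the replicate block, sex as a covariate, male pools only, leaving each array out, using Expression Console, further scaling, a pseudocount of 16, a filter on dim rows, the mean over rows of a gene, other eBayes settings, and the methods' t-test and analysis of variance. Promoters were read from a RefSeq table of GRCm38.p6, and protein sequences were not used here. Rhod, Pak1 and Adam17 were not analysed here.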

Additional observations from a re-analysis of the deposited data

Results flagged for a closer look

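Sema3f was the member whose female and male pools moved in opposite directions. BSM minus BMDM was -0.05 on the log2 scale in the female pools (1 array each) and from 0.00064 to 0.32 over the pairs of male arrays, so that the female difference was below the male mean by 0.21 (female minus male, -0.21). The sex by cell type term in limma did not pass (adjusted p = 0.87), and the labelled sex cannot be told apart from the set of sorts. Sema3f did not pass between the cell types either.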

How the results depend on the processing

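The counts of members with small differences depended on the processing. Against 11 semaphorins higher in BSM, there were 2 in the Expression Console table (also with its rows of 1 symbol alone), 4 after median centring, 5 after quantile normalization again, 5 in the male pools only, and 3 when rows under the median row mean, which include 18 members, were dropped. Leaving out single arrays gave 5 to 9, with 7 without BSM replicate 1, 6 without BMDM replicate 1 and 5 without BMDM replicate 2. Against 1 semaphorin lower (Sema4a), each of these gave 2 except quantile normalization, and so did log2(value + 16), and leaving out single arrays gave 1 to 2. Against 5 plexins higher there were 3 in the Expression Console table and 2 among the brighter rows, and 4 to 5 without single arrays. Plexins lower were 2 in every setting run. Pathway genes lower were 17, and 10 after quantile normalization.

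With the replicate block, 8 semaphorins were higher and 1 lower, 4 plexins were higher and 2 lower, and 15 pathway genes were higher and 16 lower. Deviations of arrays with the same replicate number correlated at 0.065, 0.0021 and 0.011, so the numbers were not taken to pair the pools.

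The Nrp1 difference was 0.29 after quantile normalization and ranged from -0.12 to 0.0072 (without BSM replicate 3) when single arrays were left out. Signs also turned for members that did not pass. In the Expression Console table the differences were -0.047 for Sema3e, -0.14 for Sema3f, -0.10 for Sema4b, -0.035 for Sema4f, -0.0061 for Sema7a, -0.038 for Plxna1 and -0.047 for Plxnb1. Centring gave -0.10 for Sema3f and -0.15 for Sema4b, quantile normalization -0.015 for Sema3e, -0.13 for Sema3f and -0.035 for Sema4f. Sema4b ranged from -0.00055 (without BSM replicate 1) to 0.093 when single arrays were left out. The cause was not tested. Of the 19 members that passed, 11 did so in every one of up to 19 alternatives, and 8 were lost in at least 1 (Sema3b, Sema3d, Sema4d, Sema5a, Sema5b, Sema6a, Sema6c and Plxna2).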
